A study of Mus musculus with 6 samples.

Results

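The BCL2 family sets whether a cell stays alive or undergoes mitochondrial apoptosis, and 10 of its mouse genes were followed here in macrophages challenged with Candida albicans, out of 54532 genes in the expression table. The members were chosen by gene name: the survival genes Mcl1, Bcl2, Bcl2l1 and the near-identical copies Bcl2a1a, Bcl2a1b and Bcl2a1d, the pore-forming effectors Bax and Bak1, and the BH3-only genes Bcl2l11 and Bid. All 10 names had 1 entry each in the table. Macrophages from the peritoneal cavity of C57BL/6J mice were either wild type (WT) or knockout for progranulin (PGRN KO), the secreted growth factor encoded by Grn. Cells of both genotypes were plated at 2000000 per well, cultured overnight and given C. albicans at 1 fungal cell per macrophage for 6 h, so that no unchallenged library was compared here. Each group held 3 libraries (WT replicates 1 to 3 and PGRN KO replicates 4 to 6). The labels do not say whether the libraries of a group came from separate animals or wells, so that p-values measure the spread between these libraries, which may be technical. The WT and PGRN KO mice came from different suppliers according to the methods, so genotype and origin cannot be told apart. The methods and the labels differ on the cell source and on the yeast dose, and the labels were followed.

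In healthy cells, the survival proteins of the family hold BAX and BAK1 in check at the outer mitochondrial membrane. BH3-only proteins, which are made or cleaved when a cell is stressed, bind the survival proteins or activate the effectors directly, after which BAX and BAK1 form pores, cytochrome c leaves the mitochondrion and caspases are activated. MCL1 is a short-lived survival protein, and the A1 proteins encoded by the Bcl2a1 copies are induced by NF-kappaB in activated macrophages and neutrophils. These are transcript measurements, and much of the family is regulated at the protein level.

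The Bcl2a1 genes are separate genes on mouse chromosome 9 that were duplicated recently, and a read that covers no base at which they differ cannot be assigned to 1 of them. Their sequences are shown because every Bcl2a1 value below depends on how reads were divided among them. The coding sequences of Bcl2a1a, Bcl2a1b and Bcl2a1d were 519 bases each and differed at 12 positions in all. The first 120 coding bases hold 7 of these 12 positions. In the lines below they are taken from the GENCODE transcripts on GRCm38 and the capitals mark those 7 positions.
Bcl2a1a: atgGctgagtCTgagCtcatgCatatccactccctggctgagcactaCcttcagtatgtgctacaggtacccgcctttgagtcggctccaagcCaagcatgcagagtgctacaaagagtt
Bcl2a1b: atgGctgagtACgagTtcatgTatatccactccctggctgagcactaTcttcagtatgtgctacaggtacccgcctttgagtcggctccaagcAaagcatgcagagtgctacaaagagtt
Bcl2a1d: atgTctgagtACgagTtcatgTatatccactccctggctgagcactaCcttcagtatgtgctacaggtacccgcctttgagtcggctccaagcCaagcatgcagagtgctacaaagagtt
Over the whole coding sequence, Bcl2a1a and Bcl2a1b were 97.9% identical (11 bases differed), Bcl2a1a and Bcl2a1d 98.7% (7 bases), and Bcl2a1b and Bcl2a1d 98.8% (6 bases). Of all 31-base words in its transcript, Bcl2a1a shared 79.6% with transcripts of other genes, Bcl2a1b 88.8% and Bcl2a1d 89.1%. The methods give paired reads of 150 bases, and longer words are shared less. Any 2 of these copies had 10.1% to 28.2% of their 150-base words in common. With transcripts of all other genes, the shared portion of 150-base words was 28.2%, 41.9% and 30.3% for Bcl2a1a, Bcl2a1b and Bcl2a1d. For Bcl2a1b most of this sharing was with Gm29094, a gene model on the same strand whose exons cover 401 of the 817 exonic bases of Bcl2a1b (49.1%), and to which at most 2 fragments were assigned in any library. Whether multi-mapped fragments, or fragments in the exons of 2 genes, were counted was not given in the sources used here, so the level of each copy is uncertain and their sum is given beside them.

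The regions around the starts of the copies were also nearly the same. The windows below run from 250 bases before to 50 bases after the start of each gene in RefSeq (GRCm38.p6, where all 10 members had an entry). They are shown for how alike the copies are there, and whether they bear on the levels of the copies was not tested. The Bcl2a1a window is chr9:88956670-88956969 on the plus strand, the Bcl2a1b window is chr9:89199023-89199322 on the plus strand, and the Bcl2a1d window is chr9:88731801-88732100 on the minus strand. Capitals mark the 4 bases that differed among the copies where all 3 windows aligned.
Bcl2a1a: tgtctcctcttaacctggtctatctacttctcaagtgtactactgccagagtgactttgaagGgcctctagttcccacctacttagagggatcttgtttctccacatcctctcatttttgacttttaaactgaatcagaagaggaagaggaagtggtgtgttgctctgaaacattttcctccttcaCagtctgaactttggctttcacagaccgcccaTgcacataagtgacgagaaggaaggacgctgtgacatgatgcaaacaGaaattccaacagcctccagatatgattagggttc
Bcl2a1b: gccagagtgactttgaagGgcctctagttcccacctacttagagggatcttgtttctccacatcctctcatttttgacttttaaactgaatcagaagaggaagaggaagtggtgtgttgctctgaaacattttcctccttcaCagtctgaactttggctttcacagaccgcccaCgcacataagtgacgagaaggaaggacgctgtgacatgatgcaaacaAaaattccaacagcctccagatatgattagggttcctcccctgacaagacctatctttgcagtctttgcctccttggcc
Bcl2a1d: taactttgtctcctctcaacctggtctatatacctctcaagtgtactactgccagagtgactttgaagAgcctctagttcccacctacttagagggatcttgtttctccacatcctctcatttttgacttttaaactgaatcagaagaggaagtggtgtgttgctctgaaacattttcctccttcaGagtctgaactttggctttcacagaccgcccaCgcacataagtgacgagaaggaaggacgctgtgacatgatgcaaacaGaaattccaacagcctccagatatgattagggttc
The aligned bases of the windows were 99.2% identical between Bcl2a1a and Bcl2a1b, 98.0% between Bcl2a1a and Bcl2a1d, and 98.8% between Bcl2a1b and Bcl2a1d. The windows start at different offsets, because the annotated starts of the copies do not lie at the same base.

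Across these libraries Mcl1 and the Bcl2a1 copies were the abundant members, Bax was the most abundant pro-apoptotic member, and Bcl2 was barely transcribed. Levels are in FPKM, fragments scaled by the length of the gene model and by the size of the library, which are per length and can be compared between genes. Ordered by the mean over the 6 libraries, the levels were Mcl1 380 ± 40.1 FPKM, Bcl2a1d 293 ± 58.2, Bcl2a1a 148 ± 23.6, Bcl2a1b 109 ± 44.4, Bax 53.5 ± 13.6, Bak1 19.7 ± 4.55, Bcl2l1 17.2 ± 2.79, Bcl2l11 3.57 ± 0.391, Bid 3.54 ± 0.603 and Bcl2 0.709 ± 0.0633 FPKM (SD over 6 libraries of both genotypes). Some neighbours did not keep this order in every library. Mcl1 was above Bcl2a1d in 5 of 6 libraries and Bcl2a1a above Bcl2a1b in 5 of 6. Bak1 was above Bcl2l1 in 3 of 6, below it in every WT library and above it in every PGRN KO library. Bcl2l11 was above Bid in 3 of 6, above it in every WT library and below it in every PGRN KO library. These changes of order with genotype were seen in the values and were not tested. Among the 8882 genes with a mean of at least 1 FPKM, Mcl1 ranked 121st and Bcl2a1d 169th, while Bcl2l11 ranked 5687th and Bid 5710th. Summed over the 6 anti-apoptotic members, the level was 943, 1049 and 918 FPKM in WT and 832, 786 and 1155 FPKM in PGRN KO. The 4 pro-apoptotic members summed to 74.2, 77.1 and 83.7 FPKM in WT and 72.1, 64.4 and 111 FPKM in PGRN KO. The 6 anti-apoptotic members thus exceeded these 4 pro-apoptotic members by 11.0-fold to 13.6-fold in WT and by 10.4-fold to 12.2-fold in PGRN KO. The 2 ranges overlapped. These ratios hold for the 10 members only, and leave out genes such as Bnip3 (106 ± 2.53 FPKM in WT) and Bnip3l (40.9 ± 1.98 FPKM in WT). They also rest on Bcl2a1 levels that are uncertain.

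**Figure D1:**
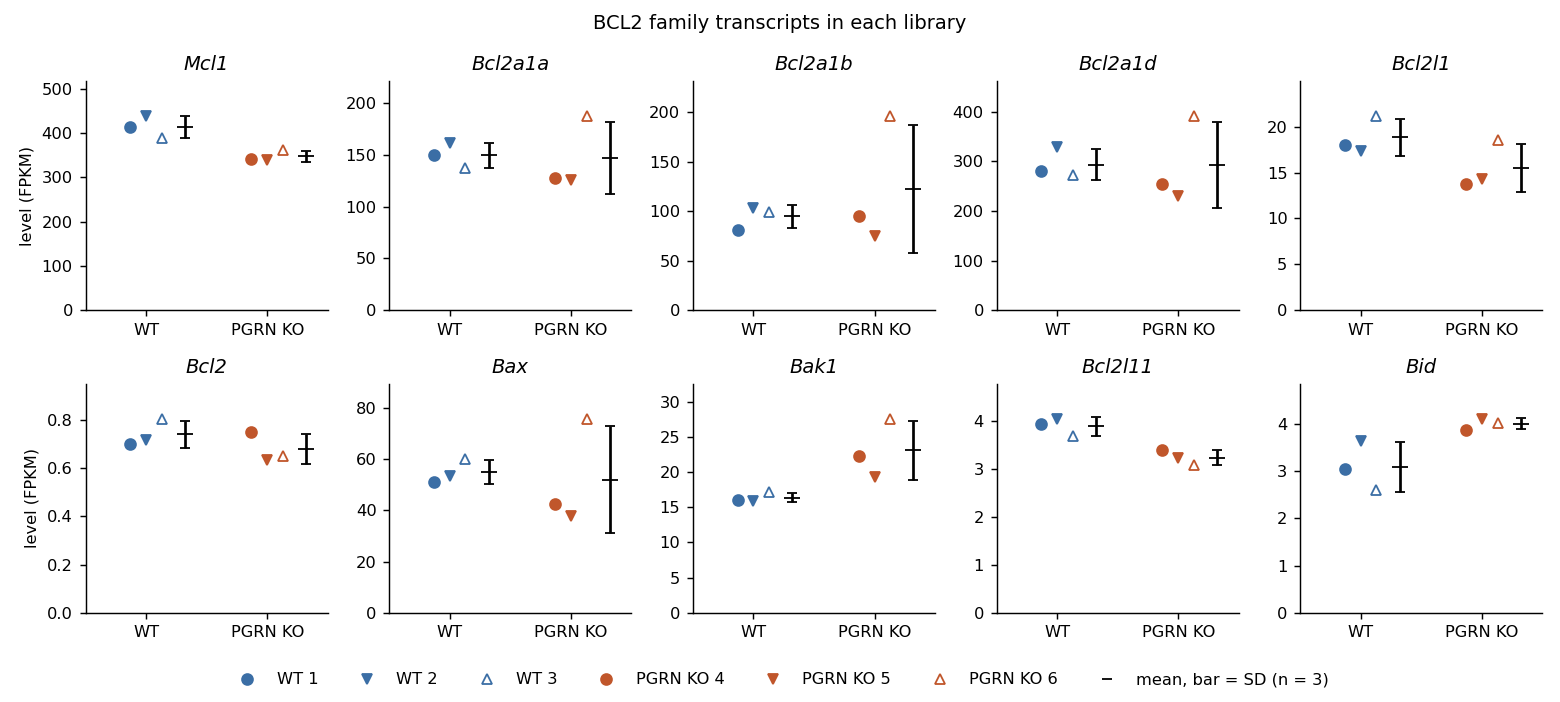
Level of each of the 10 members in FPKM (y axis, linear from 0, a separate scale per gene) in the 3 WT libraries (blue) and the 3 PGRN KO libraries (orange), with the mean and SD (n = 3) in black. Mcl1, Bcl2l11, Bak1 and Bid show no overlap between genotypes, and PGRN KO replicate 6 (open orange triangle) lies far above the other PGRN KO libraries for Bax and the Bcl2a1 copies.

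Grn itself, the gene deleted in the knockout, was at 323, 337 and 325 FPKM in WT and at 0.0166, 0 and 0.0167 FPKM in PGRN KO, with 1, 0 and 1 fragments, so the libraries match their genotype labels. The libraries held between 15996786 and 17551619 fragments assigned to genes. PGRN KO replicate 6 stood apart from replicates 4 and 5 by gene length: its log2(FPKM + 1) minus their mean had a median of 0.38 over the 1776 shortest tested genes (1776 bases or fewer) and of -0.32 over the 1776 longest (6952 bases or more). The macrophage markers, among them Adgre1 and Cd68, were all above the filter and summed to 11618 to 12561 FPKM in the WT libraries, against 10445 to 14377 FPKM in those of PGRN KO, with Csf1r called lower and Mertk higher. Markers of other cells that a peritoneal harvest can hold moved with genotype at low levels. The 7 B cell markers summed to 9.28 to 10.7 FPKM in the WT libraries, against 26.1 to 30.9 FPKM in those of PGRN KO, with 4 of 7 called higher, although the defining markers Ms4a1 and Pax5 were under 1 FPKM in all libraries. In the same order, WT and then PGRN KO, the 6 mast cell markers summed to 2.29 to 3.19 and 9.72 to 14.0 FPKM (2 of 6 higher). Of the called markers, Cd79a and Cd79b of B cells and Cma1 of mast cells had WT means under the filter of 1 FPKM. They could enter the test only by being higher in PGRN KO. The 10 neutrophil markers summed to 60.7 to 66.9 and 32.5 to 36.4 FPKM, with 1 of 10 called lower (S100a8) and Ly6g, Elane and Cxcr2 at 0 in all libraries. The 6 T cell markers summed to 3.64 to 4.08 and 4.85 to 8.61 FPKM, with 0 called by limma and 0 at an unadjusted p under 0.05. The 6 markers of large peritoneal macrophages, the resident cells of the cavity, summed to 27.0 to 31.2 and 42.6 to 49.1 FPKM (2 of 6 higher, Cd5l and Icam2). Most of this rise was Cd5l, at 7.02 to 7.41 and 18.7 to 29.4 FPKM. Gata6 (3.78 to 4.26 and 3.84 to 5.07 FPKM) and Prg4 (12.7 to 16.2 and 10.4 to 14.3 FPKM) overlapped between genotypes and were not called. Timd4 and Alox15 were under 1 FPKM in all libraries. Markers of dendritic, NK, eosinophil and mesothelial or fibroblast cells each summed to at most 2.27 FPKM in every library. The part of these shifts in the results below was not tested, and in bulk RNA fewer cells of a type and less RNA per cell cannot be told apart.

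The genotype comparison asked which members differed between PGRN KO and WT macrophages at 6 h of challenge. Bak1, an effector that resides on the mitochondrion, was the 1 member called in the fit of all 6 libraries, and it was higher in PGRN KO. Mcl1 and Bcl2l11 were lower and Bid higher in every PGRN KO library than in every WT library, but none of these passed the adjusted threshold. Of the 10 members, 9 passed the filter of a mean of 1 FPKM, and Bcl2 was under it in every library. The tests were limma fits on log2(FPKM + 1) over 8882 genes, with Benjamini-Hochberg adjusted p-values and a threshold of 0.05. Over all tested genes 2151 were called (24.2%), 921 higher (10.4%) and 1230 lower (13.8%), so 1 called member of 9 is not more than this background. Groups that did not overlap were found for 4 members (Mcl1, Bcl2l11, Bak1 and Bid) and for 48.8% of all tested genes. Before adjustment, 3469 genes had a p under 0.05, 4 of them members.

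Among the effectors, Bak1 (chr17:27019810-27029009, minus strand, GRCm38) was at 16.1, 15.9 and 17.2 FPKM in WT and at 22.3, 19.3 and 27.6 FPKM in PGRN KO. Every PGRN KO library was above every WT library. The mean rose from 16.4 ± 0.694 to 23.1 ± 4.19 FPKM (SD, n = 3 each), 1.41-fold, with a log2 fold change of 0.46 ± 0.13 (SE; 95% interval 0.14 to 0.77) and an adjusted p of 0.0478. The call sat close to the threshold and was lost without WT replicate 1, WT replicate 2, WT replicate 3 or PGRN KO replicate 4 (adjusted p 0.153, 0.151, 0.110 and 0.0936), with no filter and with no variance trend, while the direction held in all 18 alternatives tried. Without PGRN KO replicate 6 the log2 fold change was 0.33 (adjusted p = 0.0185). The Bak1 exons overlap exons of Ggnbp1 on the opposite strand over up to 18.2% of their bases. Ggnbp1 had 7 to 20 fragments per library against 566 to 1148 for Bak1. These numbers cannot show how fragments in the overlap were counted, because the use of strand was not given in the sources used here.

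Bax (chr7:45461697-45466898, minus strand), the effector that waits in the cytosol until it is activated, behaved differently between libraries of one genotype. It was at 51.2, 53.5 and 60.2 FPKM in WT and at 42.5, 37.7 and 75.9 FPKM in PGRN KO. PGRN KO replicates 4 and 5 were below all WT libraries and PGRN KO replicate 6 was above all of them. The log2 fold change with all libraries was -0.14 ± 0.25 (95% interval -0.73 to 0.45) with an adjusted p of 0.703. Without PGRN KO replicate 6 the mean of PGRN KO was 0.730 times that of WT, with a log2 fold change of -0.44 and an adjusted p of 0.0106. The Bax to Bak1 ratio of FPKM was 3.19, 3.36 and 3.51 in WT and 1.90, 1.95 and 2.75 in PGRN KO, and the genotypes did not overlap. This ratio was formed after the values were seen and is a description without a test.

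Among the survival genes, Mcl1 (chr3:95658788-95663176, plus strand) was the highest member and was lower in PGRN KO, at 412, 438 and 387 FPKM in WT and at 340, 340 and 361 FPKM in PGRN KO. The libraries did not overlap, yet the difference of -0.25 ± 0.10 on the log2 scale (95% interval -0.47 to -0.02) had an adjusted p of 0.102. Without PGRN KO replicate 6 it was -0.28 with an adjusted p of 0.0183, and the PGRN KO mean was 0.824 times the WT mean. The difference was smaller under other scalings, at -0.15 (adjusted p = 0.197) with the sum of fragments as library size and at -0.13 (adjusted p = 0.325) with quantile normalization. Mcl1 had 20139 to 23898 fragments per library, so counting error was small beside the spread between libraries. Bcl2l1 (chr2:152780668-152831728, minus strand), which encodes BCL-XL, was at 18.0, 17.4 and 21.2 FPKM in WT and at 13.7, 14.2 and 18.5 FPKM in PGRN KO, and PGRN KO replicate 6 lay above WT replicates 1 and 2. Its log2 fold change was -0.27 ± 0.14 (adjusted p = 0.186), -0.40 (adjusted p = 0.0160) without PGRN KO replicate 6, and -0.18 (adjusted p = 0.391) with the sum of fragments as library size. Bcl2 (chr1:106538178-106714274, minus strand), the founding member of the family and abundant in lymphocytes, was at 0.698, 0.716 and 0.805 FPKM in WT and at 0.750, 0.635 and 0.651 FPKM in PGRN KO. It was under the filter, and in a fit without the filter its log2 fold change was -0.05 ± 0.09 with an adjusted p of 0.764. It rested on 97 to 133 fragments per library, and the exact Poisson 95% interval ran from 78.7 to 118 fragments for the lowest library and from 111 to 158 for the highest, which covers counting error only. The B cell markers were higher in PGRN KO, and whether B cells add to the level of Bcl2 was not tested.

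The BH3-only genes differed from WT in opposite directions, and neither passed the test. Bcl2l11 (chr2:128126038-128162547, plus strand), which encodes BIM, a strong activator of BAX and BAK1, was at 3.95, 4.06 and 3.69 FPKM in WT and at 3.40, 3.23 and 3.09 FPKM in PGRN KO. The PGRN KO libraries were all lower, with a log2 fold change of -0.21 ± 0.09 and an adjusted p of 0.121, and the difference was -0.13 with the sum of fragments as library size and -0.09 with the correction for gene length and GC content. Bid (chr6:120891930-120916853, minus strand), which is cleaved by caspase-8 to link death receptors to mitochondria, was at 3.03, 3.64 and 2.59 FPKM in WT and at 3.87, 4.11 and 4.01 FPKM in PGRN KO. All PGRN KO libraries were higher, with a log2 fold change of 0.30 ± 0.11 and an adjusted p of 0.0998, which was 0.0477 with the sum of fragments as library size. The ratio of Bid to Bcl2l11 was 0.768, 0.896 and 0.703 in WT and 1.14, 1.27 and 1.30 in PGRN KO. It could not overlap, because each gene was already separated, in opposite directions. Like the Bax to Bak1 ratio, it was formed after the values were seen and is a description without a test. Bcl2l11 had 429 to 534 fragments and Bid 166 to 276 per library, so they are the least deeply counted of the tested members. Bid exons overlap exons of Bcl2l13 on the opposite strand over 17.7% of their bases, and Bcl2l13 was itself at 1.60 to 1.98 FPKM, so fragments there cannot be told apart if the counting did not use strand, which was not given in the sources used here.

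**Figure D2:**
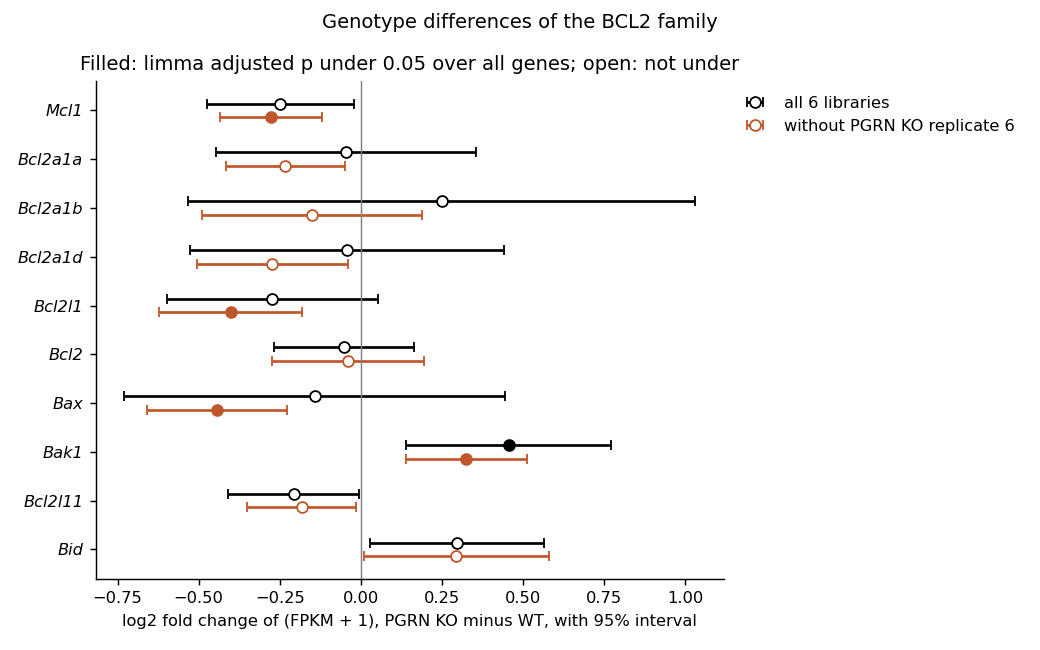
Log2 fold change of (FPKM + 1), PGRN KO minus WT, with its 95% interval (x axis) for each member (y axis), from the limma fit of all 6 libraries (black) and without PGRN KO replicate 6 (orange), where filled points have an adjusted p under 0.05. Bak1 is filled in both, whereas Mcl1, Bcl2l1 and Bax are filled only without replicate 6; Bcl2 is from the unfiltered fit.

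Without PGRN KO replicate 6, 4 members were called, Bak1 higher and Mcl1, Bcl2l1 and Bax lower, 4 of 9 tested, beside 41.3% of all tested genes in the same fit, which is close to the members' share. Across the 9 tested members the log2 fold changes had a median of -0.05 with all libraries and -0.23 without that library, against -0.03 and -0.04 over all tested genes. Both medians of the members are the value of Bcl2a1a, and the near-identical Bcl2a1 copies count separately among the 9. The fit without PGRN KO replicate 6 is 1 of the 6 fits that leave out a library. It is shown beside the full fit because that library stood apart by gene length.

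The values of the Bcl2a1 copies, like those of Bax, rested on PGRN KO replicate 6. Their gene models lie at chr9:88956900-88962419 (Bcl2a1a, plus strand), chr9:89199209-89207827 (Bcl2a1b, plus strand) and chr9:88723285-88731914 (Bcl2a1d, minus strand). Bcl2a1d was at 280, 328 and 272 FPKM in WT and at 253, 231 and 391 FPKM in PGRN KO, Bcl2a1a at 150, 162 and 137 FPKM in WT and at 128, 126 and 188 FPKM in PGRN KO, and Bcl2a1b at 81.3, 103 and 99.8 FPKM in WT and at 95.5, 75.4 and 196 FPKM in PGRN KO. For each copy PGRN KO replicate 6 was the highest of all 6 libraries. In the same order, the log2 fold changes of the copies were -0.04 ± 0.21, -0.05 ± 0.17 and 0.25 ± 0.33 with adjusted p-values of 0.894, 0.864 and 0.609. Summed over the copies, which depends little on how fragments were divided among them but would still miss fragments discarded as multi-mapped, the level was 512, 593 and 509 FPKM in WT and 477, 432 and 776 FPKM in PGRN KO. The sum had a log2 fold change of 0.02 ± 0.22 (95% interval -0.51 to 0.54) and an adjusted p of 0.964. Without PGRN KO replicate 6 it was -0.24 with an adjusted p of 0.0758. The sum makes Bcl2a1 transcripts 54.3% to 56.5% of the anti-apoptotic level in WT and 54.9% to 67.1% in PGRN KO.

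The share of each copy in the summed level varied less than the level itself. Bcl2a1d made up 54.8%, 55.3% and 53.4% in WT and 53.1%, 53.5% and 50.4% in PGRN KO. Bcl2a1a made up 29.3%, 27.2% and 27.0% in WT and 26.9%, 29.1% and 24.2% in PGRN KO. Bcl2a1b made up 15.9%, 17.4% and 19.6% in WT and 20.0%, 17.5% and 25.3% in PGRN KO. The differences in mean share were -2.17, -1.12 and 3.30 percentage points, with exact two-sided permutation p-values of 0.2, 0.4 and 0.2 (adjusted over the 3 copies 0.3, 0.4 and 0.3), where the smallest p that 3 against 3 libraries allow is 0.1. These differences were, without PGRN KO replicate 6, -1.23, 0.13 and 1.10 percentage points. Over the 6 libraries the levels of the copies correlated with r = 0.984 between Bcl2a1a and Bcl2a1d, 0.884 between Bcl2a1b and Bcl2a1d and 0.829 between Bcl2a1a and Bcl2a1b, a description that includes the sequence they share and the one library that stands out. Bcl2a1c, a further copy on the same chromosome with a shorter coding sequence of 387 bases, was at or below 1.37 FPKM in every library and had 9 fragments at most.

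**Figure D3:**
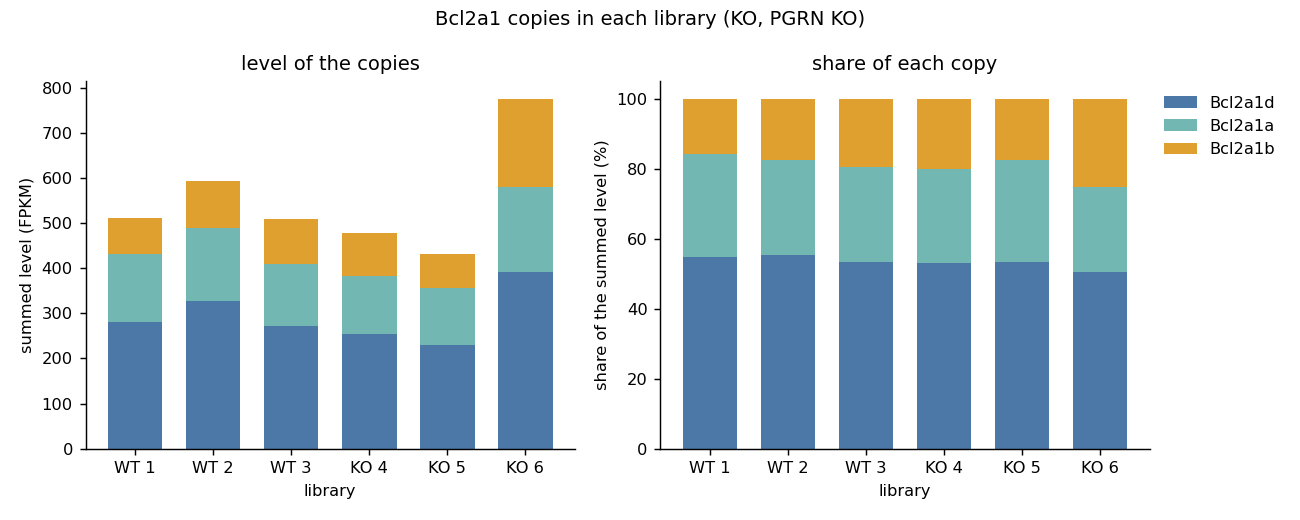
Level (left, FPKM, stacked from 0) and share (right, percent of the sum) of Bcl2a1d, Bcl2a1a and Bcl2a1b in each of the 6 libraries (x axis). The stacked level of PGRN KO replicate 6 reaches 776 FPKM against 432 to 593 in the other libraries, while Bcl2a1d keeps between 50.4% and 55.3% of the sum throughout.

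Members differed in how far PGRN KO replicate 6 departed from replicates 4 and 5, and the upward departures were largest among the short gene models. The level in replicate 6 over the mean of replicates 4 and 5 was 2.30 for Bcl2a1b (817 bases), 1.89 for Bax (1576 bases), 1.62 for Bcl2a1d (863 bases) and 1.48 for Bcl2a1a (819 bases). It was 1.33 for Bak1 (2407 bases) and Bcl2l1 (4586 bases), 1.06 for Mcl1 (3418 bases) and 1.01 for Bid (3550 bases). It was 0.940 for Bcl2 (9157 bases) and 0.932 for Bcl2l11 (8029 bases). This library was the highest of all 6 for 5 members and the highest of the PGRN KO libraries for 7. When each library was smoothed against gene length and GC content, 2 members were called, Bak1 higher and Mcl1 lower.

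**Figure D4:**
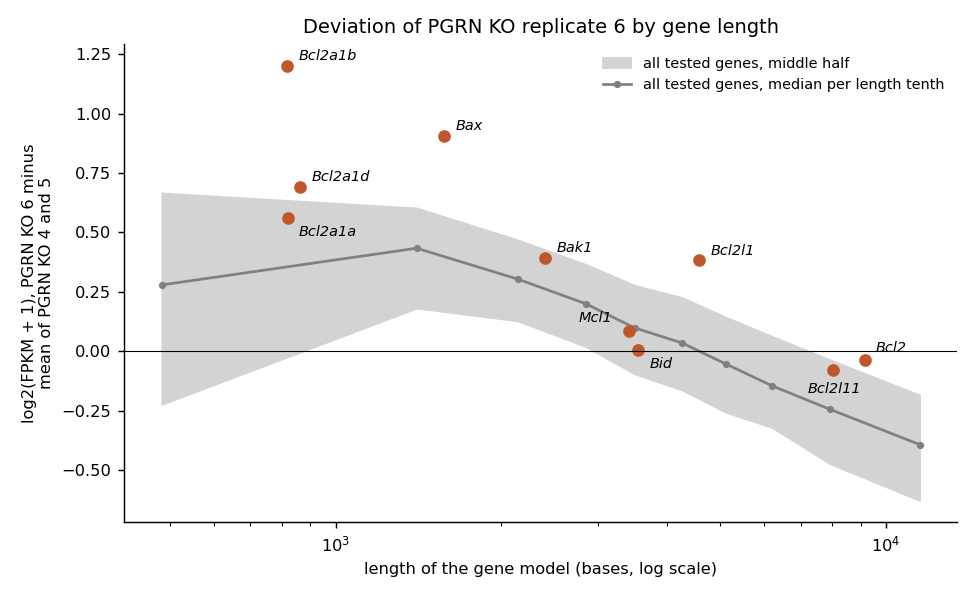
Difference in log2(FPKM + 1) between PGRN KO replicate 6 and the mean of PGRN KO replicates 4 and 5 (y axis) against the length of the gene model (x axis, log scale in bases) for the 10 members (points) and all tested genes (grey line, median per length bin; band, interquartile range). The median falls from above 0 for short models to below 0 for long ones, and Bcl2a1b, Bax and Bcl2l1 lie above the band while the other members lie within or close to it.

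Genes that act around the family were read from 8 further lists, of which 44 genes are described here, 33 passed the filter and 9 were called (4 higher and 5 lower). These 9 of 33 are close to the 24.2% called over all tested genes (10.4% higher and 13.8% lower), so the lists together did not stand out from the background. Of 4 caspases described, 2 were called higher and 0 lower. Casp8, the initiator that cleaves BID, was at 19.7, 20.6 and 18.9 FPKM in WT and at 32.8, 26.6 and 27.1 FPKM in PGRN KO, and rose by 0.52 ± 0.11 on the log2 scale (adjusted p = 0.0155). No PGRN KO library fell within its WT range. Casp2 was at 0.890 ± 0.101 FPKM in WT, against 2.10 ± 0.348 FPKM in PGRN KO (0.71, adjusted p = 0.00715), and since its WT level was under the filter it could enter the test only by being higher in PGRN KO. Casp9, the initiator that the apoptosome activates, was at 2.97 ± 0.277 FPKM in WT, against 3.04 ± 0.413 FPKM in PGRN KO (adjusted p = 0.895), and Casp6 at 2.86 ± 0.415 and 3.09 ± 0.132 FPKM (adjusted p = 0.559). Casp2 was called in all 17 alternatives in which it had a value, while Casp8 lost the call without any 1 WT library.

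Of 6 transcription factors known to regulate BCL2 family genes, 4 were called lower and 0 higher, beside 13.8% of all tested genes called lower, and this difference was not tested. Trp53, which encodes p53, an activator of Bax, Bbc3 and Pmaip1, was at 14.9, 15.3 and 15.7 FPKM in WT and at 9.91, 10.2 and 11.4 FPKM in PGRN KO, and fell by 0.51 on the log2 scale (adjusted p = 0.00893), a call kept in all 18 alternatives. Nfkb1, a subunit of NF-kappaB, fell from 85.2 ± 5.69 to 59.5 ± 6.68 FPKM (log2 fold change -0.51, adjusted p = 0.0193). Atf5 fell from 25.9 ± 1.69 to 17.0 ± 1.92 FPKM (-0.58, adjusted p = 0.0114), and Foxo3, an activator of Bcl2l11, from 8.28 ± 0.408 to 5.65 ± 1.09 FPKM (-0.49, adjusted p = 0.0390). Rela, the partner of NFKB1 in the main NF-kappaB dimer, was at 61.9 ± 4.47 and 64.7 ± 8.27 FPKM (adjusted p = 0.745), and Ddit3 at 26.6 ± 2.88 and 22.6 ± 4.62 FPKM (adjusted p = 0.291), although Ddit3 was called lower without PGRN KO replicate 6 (-0.39, adjusted p = 0.0187). The calls of Nfkb1, Atf5 and Foxo3 were lost without WT replicate 1 or WT replicate 2, those of Nfkb1 and Foxo3 also without WT replicate 3 and on the TPM scale, and that of Foxo3 also without PGRN KO replicate 4, with no filter and with the sum of fragments as library size, so that it was kept in 11 of 18 alternatives.

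The remaining lists held few calls. Of 9 other BH3-only and BH3-like genes 5 passed the filter and 1 was called, Pmaip1. It encodes NOXA, the BH3-only protein that binds MCL1, and fell from 5.74 ± 0.702 to 4.24 ± 0.112 FPKM (log2 fold change -0.36, adjusted p = 0.0446). That call was kept in 8 of 17 alternatives. Without PGRN KO replicate 6 the hypoxia-induced Bnip3 (-0.31, adjusted p = 0.00423) and Bnip3l (-0.23, adjusted p = 0.0247) were called lower as well. Of 9 apoptosome and mitochondrial death factors 8 passed and only Vdac3, a channel of the outer mitochondrial membrane, was called, rising from 12.8 ± 0.223 to 17.3 ± 2.18 FPKM (0.40, adjusted p = 0.0362). In the fit without PGRN KO replicate 6, Vdac1 (-0.27, adjusted p = 0.0125) and Vdac2 (-0.21, adjusted p = 0.0303), other channels of that membrane, were called lower while Vdac3 stayed higher (0.31, adjusted p = 0.0120). Of 5 inhibitor of apoptosis genes 4 passed and only Birc2 was called, rising from 2.25 ± 0.281 to 3.21 ± 0.156 FPKM (0.38, adjusted p = 0.0360). In that fit Xiap was called higher as well (0.22, adjusted p = 0.0413) and Birc6 lower (-0.62, adjusted p = 0.00154). Vdac3 and Birc2 lost the call without any 1 WT library, without PGRN KO replicate 5 and with no filter, Birc2 also without PGRN KO replicate 4 and on the TPM scale, and Pmaip1 lost it without any library except PGRN KO replicate 6. The 4 regulators of MCL1 stability all passed and 0 were called by limma (0 at an unadjusted p under 0.05), although Fbxw7 was called in 1 of 17 alternatives, with medians of log2 fold change of -0.17 with all libraries and 0.08 without PGRN KO replicate 6. Of 3 other anti-apoptotic genes only Bcl2l2 passed, at 8.09 ± 0.158 and 8.01 ± 0.179 FPKM (adjusted p = 0.924), and Bcl2l10 was at 0 in all libraries. Of 4 other multidomain and atypical members only Bcl2l13 passed, and it was not called (adjusted p = 0.330).

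**Figure D5:**
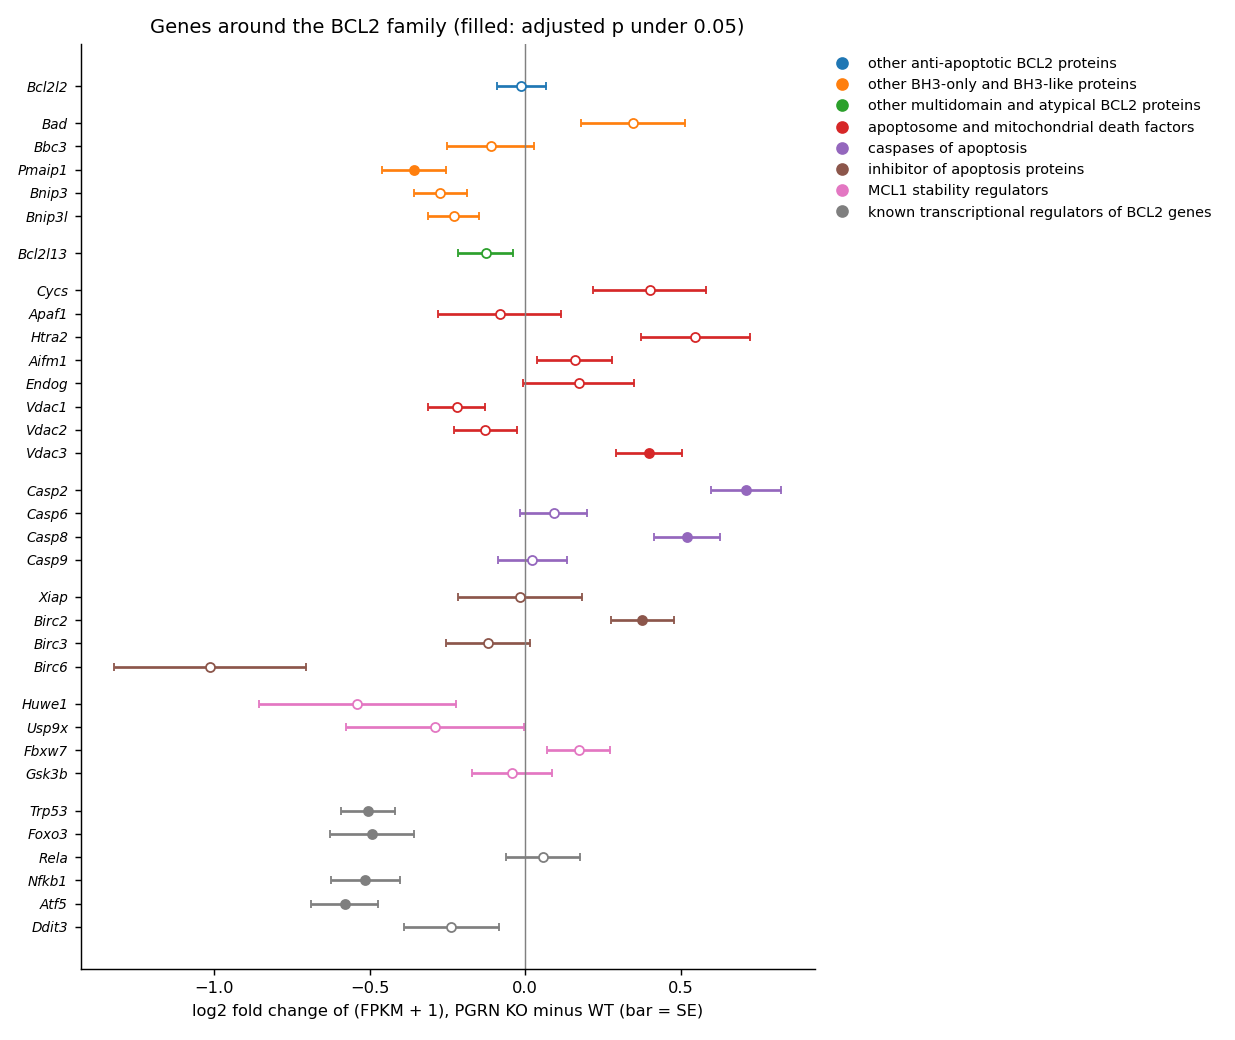
Log2 fold change of (FPKM + 1), PGRN KO minus WT, with its standard error (x axis) for the 33 tested genes of the 8 further lists (y axis, coloured by list), where filled points have an adjusted p under 0.05. Casp2 and Casp8 lie to the right of 0 and Trp53, Foxo3, Nfkb1 and Atf5 to the left.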

How the data were processed

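RNA was sequenced from 6 macrophage libraries, 3 WT and 3 PGRN KO, all challenged with C. albicans for 6 h. The submitters' processing notes name CASAVA, HISAT2 2.0.5, featureCounts 1.5.0-p3, DESeq2 1.20.0 and the mouse build GRCm38 (mm10), whereas the study's methods name HISAT and HTSeq. The handling of multi-mapped fragments and of strand was not given in the sources used here. Deposited values were FPKM per gene, made by the authors from fragment counts, the gene length and a library size. That library size was 0.925 to 1.09 times the fragments assigned to genes and proportional to a median-ratio size factor. Whole fragment numbers were recovered from the FPKM steps (100% of values, tolerance 0.001 of a step) and give the depth, 15996786 to 17551619 fragments per library. Gene identifiers matched GENCODE for 99.9% of genes, and all 10 members had the same coordinates there.

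Genes with a mean of at least 1 FPKM over the 6 libraries were tested on log2(FPKM + 1) with limma 3.58.1 (R 4.3.3; linear model, moderated variance with a trend on mean level), and p-values were adjusted over all 8882 genes by the Benjamini-Hochberg method. A fold change on this scale understates that of low genes. Shares of the Bcl2a1 copies were compared by exact permutation tests. Shared sequence was counted as 31- and 150-base words over the GENCODE transcripts of all genes. The genes named in the text are all 10 members, Grn, every gene of the further lists past the threshold with the count per list, and for a called member the 2 tested genes with the highest correlation over libraries. Other genes of the lists are named with their values as examples chosen after their values were seen, and so are the ratios between members. Some genes of the further lists are not reported here, and list counts are without them. The members and lists were chosen with earlier results of these data known. The 18 alternatives covered the pseudocount (0.1, 0.01), the filter (none, or a mean of 5), the scaling (TPM, sum of fragments, quantile), voom on recovered fragments, the variance trend, sample quality weights, a loess correction (span 0.5) for gene length and GC content, the same correction without PGRN KO replicate 6, and leaving out each library. The script was tested on simulated data.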

Additional observations from a re-analysis of the deposited data

How the results depend on the processing

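The members called numbered 1 with all libraries (Bak1), 0 with no filter on low values and 0 with no variance trend, 2 with the sum of fragments as library size (Bak1 and Bid higher), 2 with the GC content and gene length correction, 7 with sample quality weights (2 higher and 5 lower; PGRN KO replicate 6 had the weight 0.0899), 6 with that correction and without PGRN KO replicate 6, and 0 to 4 on leaving out a library. Over all genes 2151 calls became 1366 with no filter, 4225 with quality weights, 3724 with the correction and without PGRN KO replicate 6, and 713 to 3668 on leaving out a library. The further lists gave 9 calls, and 5 with no filter, 5 on the TPM scale, 19 with quality weights, 17 with the correction and without PGRN KO replicate 6, and 2 to 16 on leaving out a library. Of the 2151 calls 921 were higher, against 922 of 1530 on the TPM scale and 1179 of 1874 with the sum of fragments. The summed Bcl2a1 copies went from 0.02 to -0.18 with quality weights, to -0.19 with the correction and without PGRN KO replicate 6, and between -0.24 and 0.18 on leaving out a library. The difference in the share of Bcl2a1a went from -1.12 to between -2.30 and 0.13 percentage points. Single log2 fold changes that turned sign were those of Bcl2a1a (0.0084 on the TPM scale, 0.054 with the sum of fragments, -0.233 to 0.056 on leaving out a library), Bcl2a1d (0.012 on the TPM scale, 0.057 with the sum of fragments, 0.016 with quantile normalization, -0.27 to 0.11 on leaving out a library), Bcl2a1b (-0.10 with the correction and without PGRN KO replicate 6, -0.15 to 0.53 on leaving out a library), Bax (-0.444 to 0.051 on leaving out a library) and Bcl2 (0.017 with the correction). Over the members, 139 of 176 values kept direction and side of the threshold, 16 passed it anew, 6 lost it and 15 turned sign; over the 9 called genes of the further lists, 122 of 159 kept both, 37 lost the call and 0 turned sign. The cause of these changes was not tested. No paired analysis was possible because the labels state no pairing of WT with PGRN KO libraries. Depth limits the values of Bcl2, Bid and Bcl2l11 most, and 3 libraries a group limit all of them.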

Other observations

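The levels of 2 genes followed those of Bak1 most closely over the 6 libraries. Slc39a3, which encodes a zinc transporter, had a Pearson r of 0.996 on the log2 scale, with means of 1.83 FPKM for WT, against 3.14 FPKM for PGRN KO. Akt2, which encodes a kinase of insulin and survival signalling, had an r of 0.995, with means of 9.04 and 11.9 FPKM. With 6 libraries in 2 groups, 350 tested genes had an r above 0.95 with Bak1, so these are descriptions of a pattern shared by many genes.

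Birc6 and Huwe1, very long genes whose products are ubiquitin ligases, were read from the lists of inhibitors of apoptosis and MCL1 regulators and depended on PGRN KO replicate 6. Birc6 was at 10.9, 10.8 and 9.87 FPKM in WT and at 6.31, 6.68 and 2.31 FPKM in PGRN KO, with a log2 fold change of -1.01 (adjusted p = 0.0534) that became -0.62 (adjusted p = 0.00154) without that library. Huwe1, which targets MCL1 for degradation, was at 10.4, 9.89 and 8.64 FPKM in WT and at 8.59, 8.67 and 3.18 FPKM in PGRN KO, with -0.54 (adjusted p = 0.248) that became -0.14 (adjusted p = 0.224).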
